A study of Rattus with 52 samples.

Results

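The data described here are the 26 left ventricle (LV) libraries, of 52 in the whole series, and one contrast over them: the change with peritoneal dialysis (PD) in rats with 5/6 nephrectomy (5/6Nx) minus the change with PD in rats with Sham surgery. This difference of 2 changes, the interaction, answers whether the LV transcriptome responded to PD differently in rats with and without renal insufficiency. The 5/6Nx PD and 5/6Nx Control groups held 7 libraries each, and the Sham PD and Sham Control groups 6 each. All rats were male Sprague Dawley, were operated on at 10 weeks of age and received an abdominal catheter with removal of the omentum 6 weeks later. In 5/6Nx rats the right kidney and the poles of the left kidney had been excised, and in Sham rats both kidneys were left in place. PD rats then had 15 mL of dialysate with 2.5% dextrose exchanged 3 times a day for 8 days with a dwell of 1 h. Control rats had the catheter and no dialysate, so PD was compared with instrumentation and not with intact animals. Tissue was taken 7 weeks after the first surgery.

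Peritoneal dialysis clears solutes and water across the lining of the abdomen into a glucose-containing fluid. The heart in renal insufficiency is known for hypertrophy, interstitial fibrosis and a shift of its fuel use away from fatty acids. Its ventricular wall is made of cardiomyocytes, which hold most of the RNA, together with fibroblasts, endothelial cells, pericytes and resident macrophages. Resident cardiac macrophages clear debris and are a main local source of the C1q proteins that start the classical complement pathway.

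The LV libraries held between 31035738 and 111849466 whole reads assigned to genes, and the 3 deepest were all from Sham rats (LV Sham PD replicates 4 and 6 and LV Sham Control replicate 2). Differences between groups are on the deposited variance-stabilised log2 scale. It places 10, 100 and 1000 normalized reads at 6.50, 7.67 and 10.13, and so compresses the differences of genes with low counts. Levels are in normalized reads (reads divided by the size factor of the library), given as the lowest, median and highest library of a group. They are not scaled to gene length and are compared between libraries only. The 15 cardiomyocyte markers in the table, such as Myh6 and Tnnt2, summed to between 4447480 and 8524910 normalized reads over the LV libraries, and none was at 0. In RNA from whole tissue, fewer cells of a type and less RNA per cell cannot be told apart. LV 5/6Nx Control replicate 1 and LV Sham PD replicate 2 had the lowest array quality weights of limma, 0.327 and 0.540, and stood apart from their groups in principal components. On the first principal component, with 37.5% of the variance, LV Sham PD replicate 2 lay at -2.42 while the other Sham PD libraries lay between 21.2 and 44.1. On the second, with 15.5%, LV 5/6Nx Control replicate 1 lay at -32.1 while the other 5/6Nx Control libraries lay between -11.5 and 17.1. The next lowest weights were close to that of LV Sham PD replicate 2, at 0.545 in LV 5/6Nx Control replicate 3 and 0.572 in LV 5/6Nx PD replicate 7, so the pair was singled out after seeing the data and not by a gap in the weights. Counts without this pair are given beside the main counts.

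Of 16312 genes tested, 113 (0.693%) passed the interaction at a Benjamini-Hochberg adjusted p under 0.05 in limma. A positive interaction, with PD relatively higher in 5/6Nx than in Sham rats, was found for 54 genes (0.331%), among them Nae1, Fgf16, Aqp7 and Socs2. A negative interaction was found for 59 genes (0.362%), among them Tnxb, the C1q chains, Cd163 and Cyp26b1. Sizes ranged from 0.35 to 1.97 on the log2 scale without regard to sign (median 0.82), against a median of 0.19 over all genes tested. At an unadjusted p under 0.05 there were 2961 genes, 1481 positive and 1480 negative. The count depended on single libraries. It was 695 without LV 5/6Nx Control replicate 1, 640 without LV Sham PD replicate 2 and 1490 without both, and all 113 genes were among those called each time. It was 247, 188, 187 and 170 without LV 5/6Nx PD replicate 7, LV Sham PD replicate 6, LV Sham Control replicate 1 and LV Sham Control replicate 5. It was 51, 49, 66 and 67 without LV 5/6Nx PD replicates 1, 2, 4 and 6, and 52, 48 and 53 without LV 5/6Nx Control replicates 3, 5 and 6. It was 35, 24, 36 and 25 without LV Sham PD replicates 1, 3, 4 and 5, and 25 and 51 without LV Sham Control replicates 2 and 6. Without LV Sham Control replicate 4 only 2 genes were called, among them Nae1 (adjusted p = 0.0483), and the highest adjusted p among the 113 was 0.0998. In all 26 fits with 1 library left out, the 113 genes kept their sign and an unadjusted p under 0.05, although these fits share 25 of the libraries that chose the genes.

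**Figure D1:**
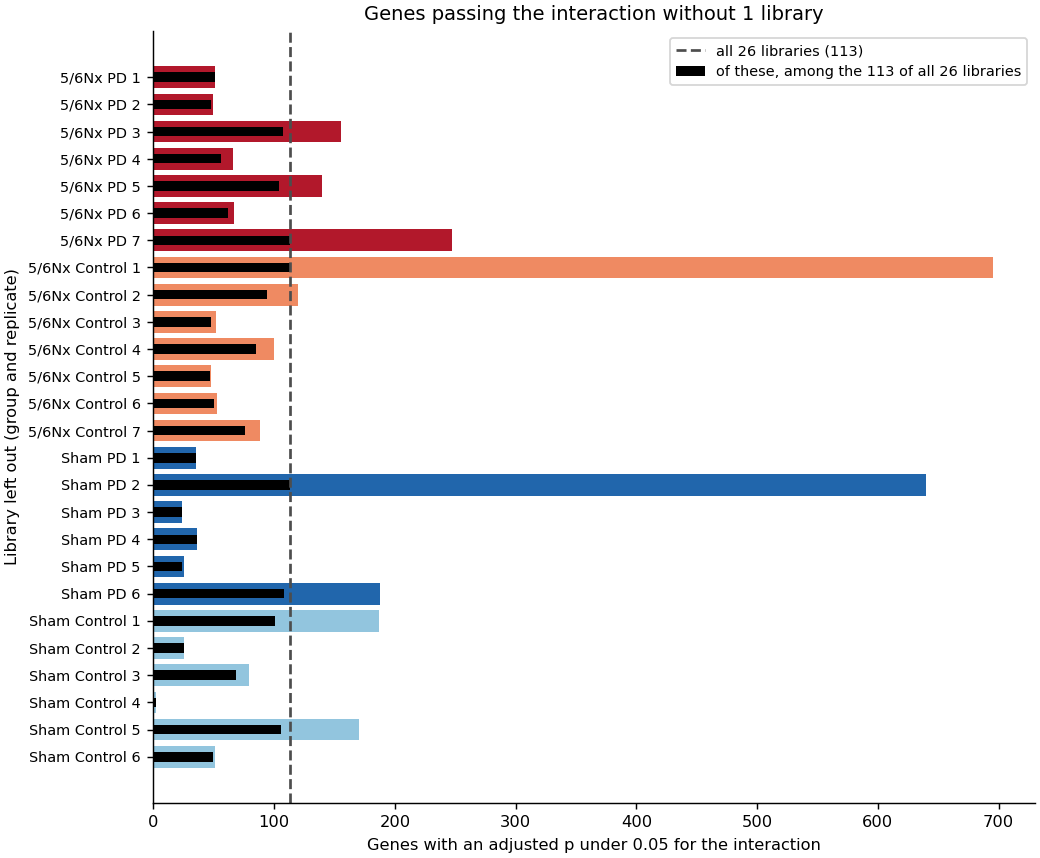
Number of LV genes with an adjusted p under 0.05 for the interaction (x axis) when the library named on the y axis was left out, coloured by group. The black bar is the part of each count that belongs to the 113 genes called with all 26 libraries (dashed line). Counts run from 2 without LV Sham Control replicate 4 to 695 without LV 5/6Nx Control replicate 1.

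The called genes were mostly genes whose change with PD had opposite signs in the 2 surgeries. All 54 positive genes were higher with PD in 5/6Nx and lower with PD in Sham rats by their group means. Of the 59 negative genes, 56 were lower with PD in 5/6Nx and higher in Sham rats. The other 3 were Cyp26b1 and Bmp2, higher with PD in both, and Cry2, lower in both. Since the interaction is the difference of the 2 changes, choosing genes by it favours opposite signs. Over all genes tested, 28.4% were higher in 5/6Nx and lower in Sham, and 31.1% the reverse. The change was larger in 5/6Nx rats for 43 of the 113 genes and larger in Sham rats for 70. The median change of the positive genes was 0.28 in 5/6Nx and -0.37 in Sham rats, and that of the negative genes was -0.41 in 5/6Nx and 0.52 in Sham rats.

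**Figure D2:**
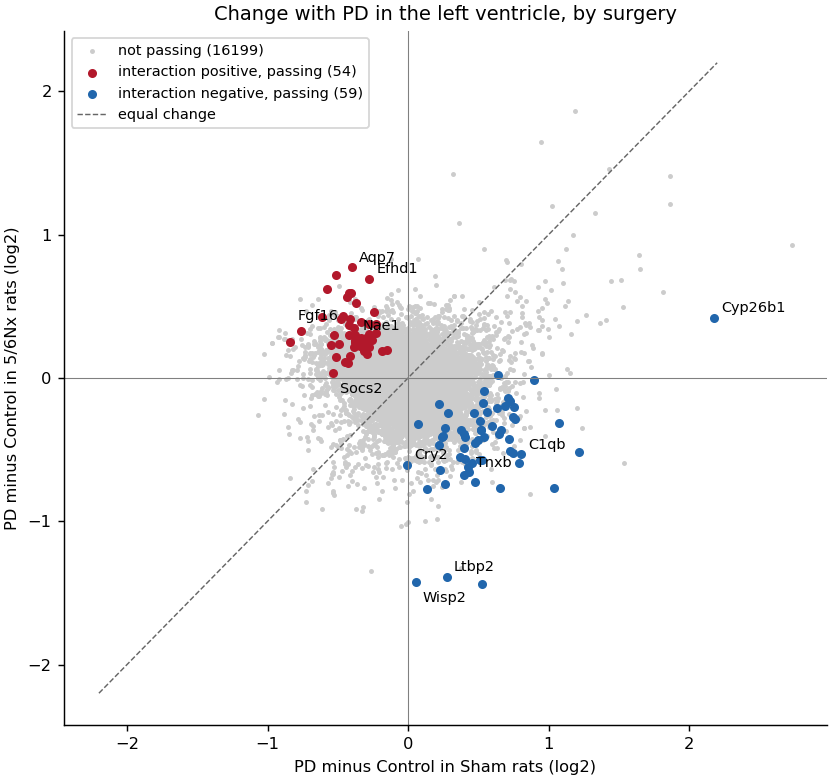
Difference of PD and Control means in 5/6Nx rats (y axis, log2) against that in Sham rats (x axis, log2) for each of the 16312 LV genes tested. Red points are the 54 genes with a positive interaction past the threshold, blue points the 59 with a negative one, and the dashed line marks equal change. The red points lie in the upper left and nearly all blue points in the lower right.

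Among the genes with a positive interaction, Nae1, the regulatory subunit of the enzyme that activates the ubiquitin-like protein NEDD8, had the smallest p. Its normalized reads were 811, 845 and 1025 in 5/6Nx PD (lowest, median and highest), against 585, 675 and 847 in 5/6Nx Control. In Sham PD they were 597, 625 and 678, against 721, 856 and 1003 in Sham Control. The PD and Control ranges overlapped in 5/6Nx but not in Sham rats, where every PD library was below every Control library. The interaction was 0.67 (SE 0.11, limma adjusted p = 0.0187), and Nae1 passed in all 26 fits with 1 library left out. Fgf16, a fibroblast growth factor made by cardiomyocytes, had 983, 1173 and 1421 normalized reads in 5/6Nx PD, against 740, 936 and 1428 in 5/6Nx Control. It had 431, 600 and 754 in Sham PD, against 974, 1084 and 1299 in Sham Control. The Sham PD libraries were below those of the other 3 groups except for 1 library of 5/6Nx Control (739.9), which lay below the highest Sham PD library, and the interaction was 1.09 (SE 0.19, limma adjusted p = 0.0211). Socs2, a suppressor of cytokine and growth hormone signaling, likewise differed in Sham rats only by its ranges. It had 3057, 3254 and 3720 normalized reads in 5/6Nx PD, against 2573, 3108 and 3882 in 5/6Nx Control, and 1846, 1962 and 2177 in Sham PD, against 2678, 2955 and 3164 in Sham Control. Its interaction of 0.57 (SE 0.11, limma adjusted p = 0.0213) was made up of a change of 0.03 in 5/6Nx and -0.54 in Sham rats.

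For Aqp7, Adra1d and Tiprl the PD and Control means differed in both surgeries, in opposite directions. Aqp7, a channel for glycerol and water, had 4601, 6110 and 8084 normalized reads in 5/6Nx PD, against 2623, 3601 and 4936 in 5/6Nx Control. In Sham rats it had 2529, 3536 and 5841 with PD, against 4269, 4810 and 6159 in Control. Ranges overlapped in both surgeries, by fewer libraries in 5/6Nx, and the interaction was 1.17 (SE 0.23, limma adjusted p = 0.0213). Adra1d, the alpha-1D adrenergic receptor, had 301, 474 and 533 normalized reads in 5/6Nx PD, against 246, 319 and 419 in 5/6Nx Control, and 111, 229 and 332 in Sham PD, against 309, 458 and 567 in Sham Control. Only the highest Sham PD library reached the range of Sham Control, and the interaction was 1.09 (SE 0.20, limma adjusted p = 0.0211). Tiprl, a regulator of protein phosphatases, was the one positive gene named here whose PD and Control ranges were apart in both surgeries. It had 1794, 1906 and 2237 normalized reads in 5/6Nx PD, against 1455, 1676 and 1772 in 5/6Nx Control, and 1403, 1471 and 1586 in Sham PD, against 1642, 1795 and 2202 in Sham Control. The interaction was smaller than for Aqp7 or Adra1d, at 0.53 (SE 0.10, limma adjusted p = 0.0211).

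Efhd1, a calcium-binding protein of mitochondria, had an interaction of 0.97 (SE 0.19), with changes of 0.69 in 5/6Nx and -0.27 in Sham rats. Its 5/6Nx PD libraries (1445, 1754 and 2116 normalized reads) were all above the 5/6Nx Control libraries (690, 1070 and 1359). Tefm, the elongation factor of mitochondrial transcription, had an interaction of 0.61 (SE 0.12). Foxp2, a forkhead transcription factor, had an interaction of 0.72 (SE 0.14), with PD and Control apart in Sham rats. Nmd3, an adaptor for export of the large ribosomal subunit, had 0.66 (SE 0.13) and was also apart in Sham rats. Lnx1, a ubiquitin ligase that targets Numb, had 0.62 (SE 0.12), with all 5/6Nx PD above all 5/6Nx Control libraries. Lrrc1 had 0.54 (SE 0.10), Rd3l 0.88 (SE 0.16) and Oca2, a membrane transporter known from melanosomes, 0.70 (SE 0.13). Limma adjusted p-values of these 8 genes were 0.0211 to 0.0264. Cholesterol synthesis genes were the only listed pathway with a positive member past the threshold other than Socs2 in the list of SOCS and STAT3 targets. Cyp51, the lanosterol demethylase, had an interaction of 0.56 (SE 0.13, limma adjusted p = 0.0409) and Idi1, the isopentenyl diphosphate isomerase, 0.57 (SE 0.14, limma adjusted p = 0.0468). These were 2 of 25 measured genes of the list, with a list median of 0.23, against -0.03 for all genes tested. Cyp51 passed in 11 and Idi1 in 6 of the 26 fits with 1 library left out. Without the 2 libraries that stood apart 5 of the 25 passed, against 1490 of 16388 genes over all.

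On the negative side, Tnxb, the matrix glycoprotein tenascin-X, had 7448, 8194 and 8926 normalized reads in 5/6Nx PD, against 10018, 12926 and 16060 in 5/6Nx Control, and 13779, 18180 and 26460 in Sham PD, against 11539, 13325 and 16048 in Sham Control. The 5/6Nx PD libraries were the lowest of all 26, and the interaction was -1.09 (SE 0.19, limma adjusted p = 0.0211).

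**Figure D3:**
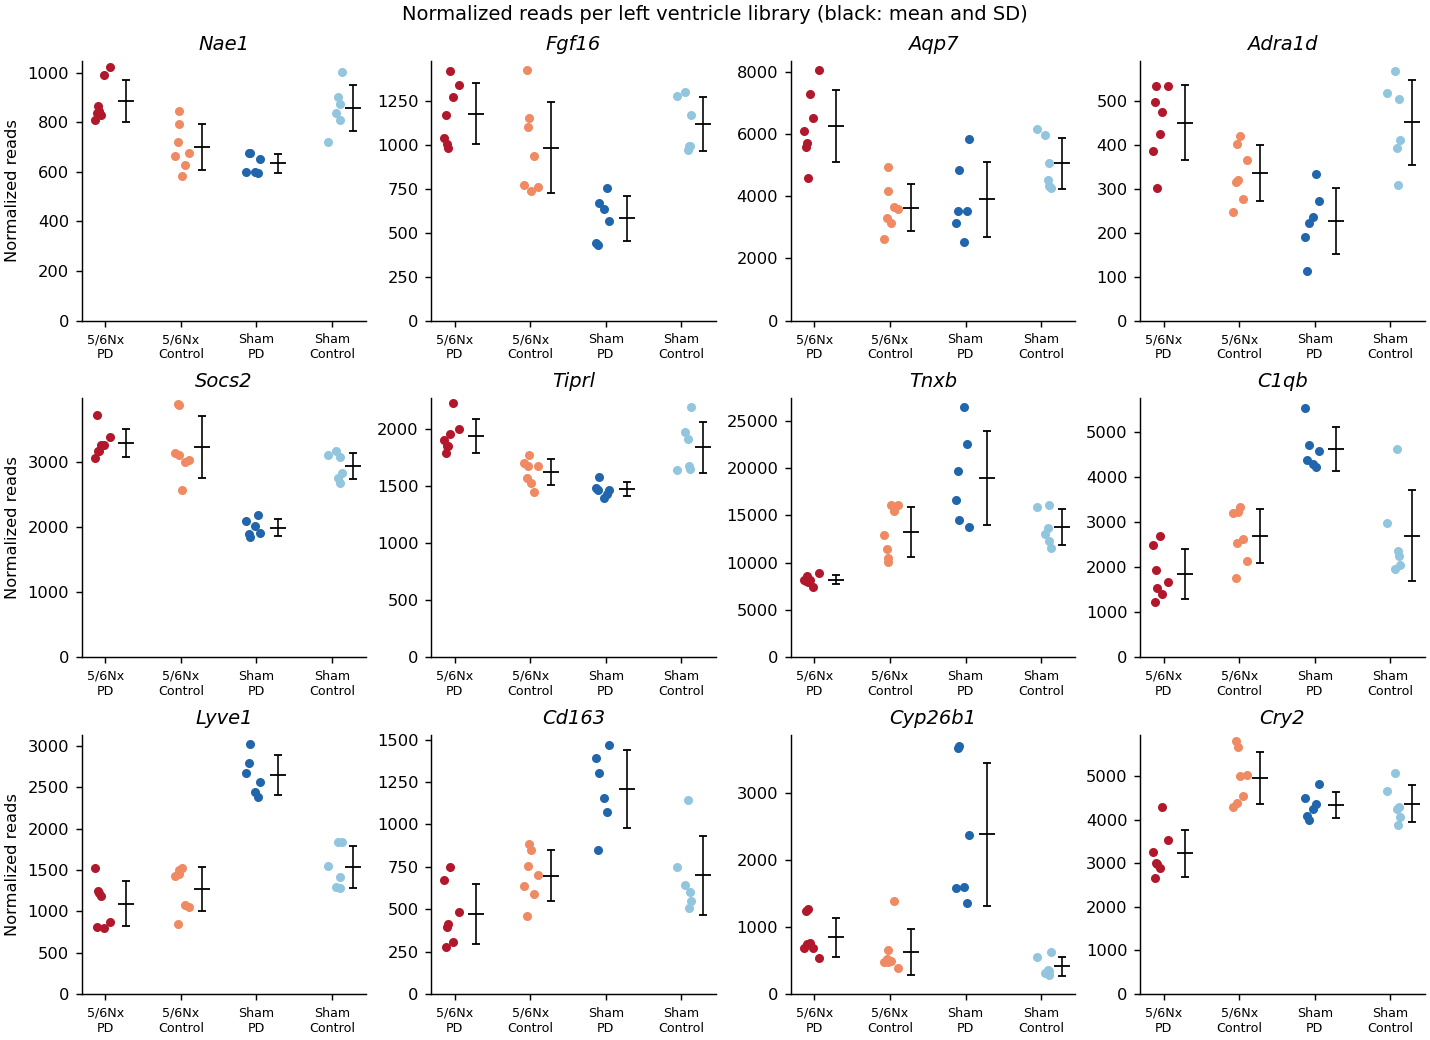
Normalized reads (y axis) of 6 genes with a positive interaction (Nae1, Fgf16, Aqp7, Adra1d, Socs2 and Tiprl) and 6 with a negative one (Tnxb, C1qb, Lyve1, Cd163, Cyp26b1 and Cry2) in each LV library. Points are libraries, and black marks are the mean and SD of the 7 libraries of each 5/6Nx group and the 6 of each Sham group. By its median Sham PD is the lowest group for the first 6 genes, and for Tnxb, C1qb, Lyve1, Cd163 and Cyp26b1 it is the highest group, while Cry2 is low in 5/6Nx PD alone.

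Genes of macrophages had the lowest median interaction of the 12 cell type lists. All 14 measured markers had a negative interaction, 7 of them past the threshold (Cd14, Cd163, Lyve1, Msr1 and the chains C1qa, C1qb and C1qc) and none in the other direction, with a median of -1.02. Over all genes tested 53.7% were negative, 0.362% passed with a negative interaction and the median was -0.03. C1qb had 1221, 1674 and 2700 normalized reads in 5/6Nx PD, against 1760, 2634 and 3341 in 5/6Nx Control. In Sham PD it had 4241, 4488 and 5555, against 1974, 2310 and 4626 in Sham Control. Sham PD libraries were above all those of 5/6Nx rats and above all but 1 of Sham Control, and the interaction was -1.34 (SE 0.26, limma adjusted p = 0.0213). Cd163, the scavenger receptor for hemoglobin bound to haptoglobin, had 279, 415 and 747 normalized reads in 5/6Nx PD, against 461, 702 and 887 in 5/6Nx Control, and 848, 1230 and 1470 in Sham PD, against 509, 622 and 1143 in Sham Control. Ranges overlapped in both surgeries, and the interaction was -1.23 (SE 0.26, limma adjusted p = 0.0279). Lyve1, a hyaluronan receptor of resident macrophages and of lymphatic endothelium, had 804, 1184 and 1520 normalized reads in 5/6Nx PD, against 852, 1424 and 1527 in 5/6Nx Control, and 2385, 2616 and 3026 in Sham PD, against 1286, 1477 and 1842 in Sham Control. PD and Control were apart in Sham rats and overlapped nearly wholly in 5/6Nx rats, with an interaction of -0.96 (SE 0.20, limma adjusted p = 0.0279). Summed over the 14 markers, the level ran from 7698 to 18322 normalized reads in 5/6Nx PD and from 9367 to 21565 in 5/6Nx Control, and from 27143 to 38382 in Sham PD and from 13681 to 30305 in Sham Control. No macrophage marker was at 0. Without the 2 libraries that stood apart 10 of the 14 passed, against 1490 of 16388 genes over all. With 1 library left out the number of markers was 0 to 10 and the list median -1.16 to -0.94. Gpnmb, a glycoprotein of phagocytes outside the list, had an interaction of -1.08 (SE 0.21, limma adjusted p = 0.0213), and Dok3, an adaptor of immune cell receptors, -0.93 (SE 0.17, limma adjusted p = 0.0211).

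Complement genes overlapped with the macrophage list through the C1q chains. Of 25 measured, 6 passed with a negative interaction (C1qa, C1qb, C1qc, properdin gene Cfp and both entries named C4a) and none with a positive one, with a median of -0.80, where 0.362% of all genes tested passed with a negative interaction. Outside the C1q chains, the first C4a entry (ENSRNOG00000047657) had 447, 633 and 1293 normalized reads in 5/6Nx PD, against 540, 1134 and 2046 in 5/6Nx Control, and 1323, 2123 and 3147 in Sham PD, against 477, 920 and 1108 in Sham Control. The second (ENSRNOG00000000443) had 554, 889 and 1333 in 5/6Nx PD, against 573, 1135 and 2217 in 5/6Nx Control, and 2113, 2416 and 3172 in Sham PD, against 897, 1107 and 1349 in Sham Control. Both were apart in Sham rats and overlapped in 5/6Nx rats, with interactions of -1.73 (SE 0.36, limma adjusted p = 0.0279) and -1.39 (SE 0.30, limma adjusted p = 0.0292). Reads of such near-identical copies can be divided between entries, so neither value is certain by itself. Between 0 and 14 of the 25 passed with 1 library left out. Without the 2 libraries that stood apart 14 of the 25 passed, against 1490 of 16388 genes over all.

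Matrix genes also carried negative interactions. In the matricellular and profibrotic list all 20 measured genes were negative and 4 passed, with a median of -0.57, against 53.7% negative and 0.362% passed as negative among all genes tested. Ltbp2, a latent TGF-beta binding protein, had 277, 435 and 1230 normalized reads in 5/6Nx PD, against 745, 1522 and 3215 in 5/6Nx Control, and 444, 576 and 788 in Sham PD, against 371, 462 and 532 in Sham Control. Wisp2, a matricellular protein of the CCN family, had 85.9, 168 and 389 in 5/6Nx PD, against 372, 682 and 1085 in 5/6Nx Control, and 111, 259 and 401 in Sham PD, against 178, 199.9 and 262 in Sham Control. Both were highest in 5/6Nx Control, and their values in 5/6Nx PD lay near those of Sham rats. In Ltbp2 the highest 5/6Nx PD library, replicate 5, had 1230.0. Interactions were -1.66 (SE 0.37, limma adjusted p = 0.0373) for Ltbp2 and -1.48 (SE 0.31, limma adjusted p = 0.0279) for Wisp2. Timp1, an inhibitor of metalloproteinases, had 586, 641 and 945 normalized reads in 5/6Nx PD, against 801, 976 and 1274 in 5/6Nx Control, and 788, 1208 and 1501 in Sham PD, against 603, 761 and 1016 in Sham Control. Its interaction was -0.95 (SE 0.20, limma adjusted p = 0.0279), and the fourth member to pass was Thbs4. In the collagen and matrix list 22 of 23 genes were negative and 2 passed, with a median of -0.42, to be read against the same shares of all genes. These were the proteoglycan Bgn, at -0.87 (SE 0.17, limma adjusted p = 0.0243), and Col12a1, at -1.0 (SE 0.23, limma adjusted p = 0.0425). All 5/6Nx PD libraries were below all 5/6Nx Control libraries for Col12a1 (137, 273 and 329, against 350.1, 433 and 719.9 normalized reads). Hmcn2, a basement membrane protein outside the lists, had an interaction of -1.20 (SE 0.25, limma adjusted p = 0.0269) and Thbs3, a thrombospondin, -0.69 (SE 0.14, limma adjusted p = 0.0279). Without the 2 libraries that stood apart 6 of the 20 and 9 of the 23 passed, against 1490 of 16388 genes over all. The ranges with 1 library left out were 0 to 6 for both lists.

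Markers of fibroblasts also lay on the negative side and share 3 collagens with the collagen and matrix list. All 13 measured fibroblast markers had a negative interaction (median -0.58) and none passed, with the smallest p for Postn (adjusted p = 0.0733). Their summed level was 74461 to 195618 normalized reads in 5/6Nx PD and 78871 to 264640 in 5/6Nx Control, and 257166 to 353185 in Sham PD and 210669 to 337277 in Sham Control. Among 11 markers of smooth muscle and pericytes 10 were negative (median -0.43), and Cspg4, the pericyte proteoglycan NG2, passed at -0.66 (SE 0.14, limma adjusted p = 0.0279). Its 5/6Nx PD libraries (2249, 2656 and 2952 normalized reads) were all below those of 5/6Nx Control (3012, 3655 and 4289). Endothelial markers had 10 of 13 negative (median -0.24) and none past the threshold, with the smallest p for Eng (adjusted p = 0.0667). Cardiomyocyte markers had 10 of 15 positive (median 0.23) and none past the threshold, with the smallest p for Pln (adjusted p = 0.0833). Without the 2 libraries that stood apart, 3 of 13 fibroblast, 2 of 11 smooth muscle and pericyte, 1 of 13 endothelial and 1 of 15 cardiomyocyte markers passed. These counts are to be read against 1490 of 16388 genes over all in that fit. The part of shifting cell shares in the macrophage, complement and matrix results was not tested.

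Among the negative genes outside these groups were Cyp26b1, Cry2 and Ptgir. Cyp26b1, which breaks down retinoic acid, had 530, 750 and 1275 normalized reads in 5/6Nx PD, against 382, 494 and 1394 in 5/6Nx Control, and 1360, 1982 and 3701 in Sham PD, against 286, 351 and 631 in Sham Control. The highest 5/6Nx Control library stood above all 5/6Nx PD libraries, and in Sham rats PD and Control were apart. The ratio of PD to Control means was 1.35 in 5/6Nx and 5.77 in Sham rats, and the interaction was -1.76 (SE 0.36, limma adjusted p = 0.0264). It was the only 1 of 17 measured retinoic acid genes to pass, and the list median was -0.31. Without the 2 libraries that stood apart 4 of the 17 passed, against 1490 of 16388 genes over all. Cry2, a repressor of the circadian clock, had 2655, 3006 and 4283 normalized reads in 5/6Nx PD, against 4291, 4991 and 5794 in 5/6Nx Control, and 3997, 4299 and 4810 in Sham PD, against 3877, 4260 and 5063 in Sham Control. All 5/6Nx PD libraries were below all 5/6Nx Control libraries, while the Sham ranges coincided. Its interaction was -0.60 (SE 0.13, limma adjusted p = 0.0373), and it was the only 1 of 19 core clock genes to pass. The list median was -0.01, but members ran from -1.004 to 0.957, so the median does not show a flat list. At an unadjusted limma p under 0.05 there were 2 positive members and 5 negative ones, Cry2 among them. Over all 16312 genes tested these counts were 1481 and 1480. Without the 2 libraries that stood apart 4 of the 19 passed, against the same 1490 of 16388 over all. Ptgir, the prostacyclin receptor, had an interaction of -0.92 (SE 0.17, limma adjusted p = 0.0211). Cpeb1, a regulator of mRNA polyadenylation, had -0.91 (SE 0.18, limma adjusted p = 0.0243), and Dixdc1, a component of Wnt signaling, -0.88 (SE 0.18, limma adjusted p = 0.0279). Cry2 and Ltbp2 kept it in 16 of the 26 fits with 1 library left out.

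The lists of fatty acid oxidation, oxidative phosphorylation, calcium handling, glycolysis and PPAR targets had positive medians, and no member of these lists passed the threshold. Of 23 measured genes of fatty acid oxidation, the main fuel pathway of the adult heart, 22 were positive and 18 of these had an unadjusted p under 0.05, with 0 at an adjusted p under 0.05 in limma. The median interaction was 0.49, against -0.03 over all genes tested, where 46.3% were positive and 1481 of 16312 were positive at an unadjusted p under 0.05. The smallest p was that of Etfdh (adjusted p = 0.0651), which passes electrons from fatty acid oxidation to ubiquinone. Averaged over the 23 genes, the log2 level was 14.85, 14.96 and 15.28 in 5/6Nx PD, against 14.61, 14.86 and 14.99 in 5/6Nx Control, and 14.20, 14.58 and 14.91 in Sham PD, against 14.67, 14.86 and 15.03 in Sham Control. The ranges overlapped in both surgeries. For oxidative phosphorylation 41 of 45 genes were positive (median 0.21), 15 of them at an unadjusted p under 0.05 and 0 past the threshold, with the smallest p for the succinate dehydrogenase subunit gene Sdhd (adjusted p = 0.0581). For calcium handling 13 of 15 were positive (median 0.58), 6 of them at an unadjusted p under 0.05 and 0 past the threshold, with the smallest p for Pln, the inhibitor of the calcium pump of the sarcoplasmic reticulum. Glycolysis and glucose uptake had 19 of 25 positive (median 0.28), with the smallest p for Pfkl (adjusted p = 0.0619), and PPAR targets 14 of 20 (median 0.22), with the smallest p for Plin5 (adjusted p = 0.0969). With limma-voom and sample quality weights, 9 of the 23, 11 of the 45 and 3 of the 15 passed, against 1019 of 16312 genes over all. Without the 2 libraries that stood apart, 15, 12 and 5 did, with 5 of the 25 genes of glycolysis and 4 of the 20 PPAR targets. Over all genes 1490 of 16388 passed in that fit, so both fits called far more genes than the main fit.

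**Figure D4:**
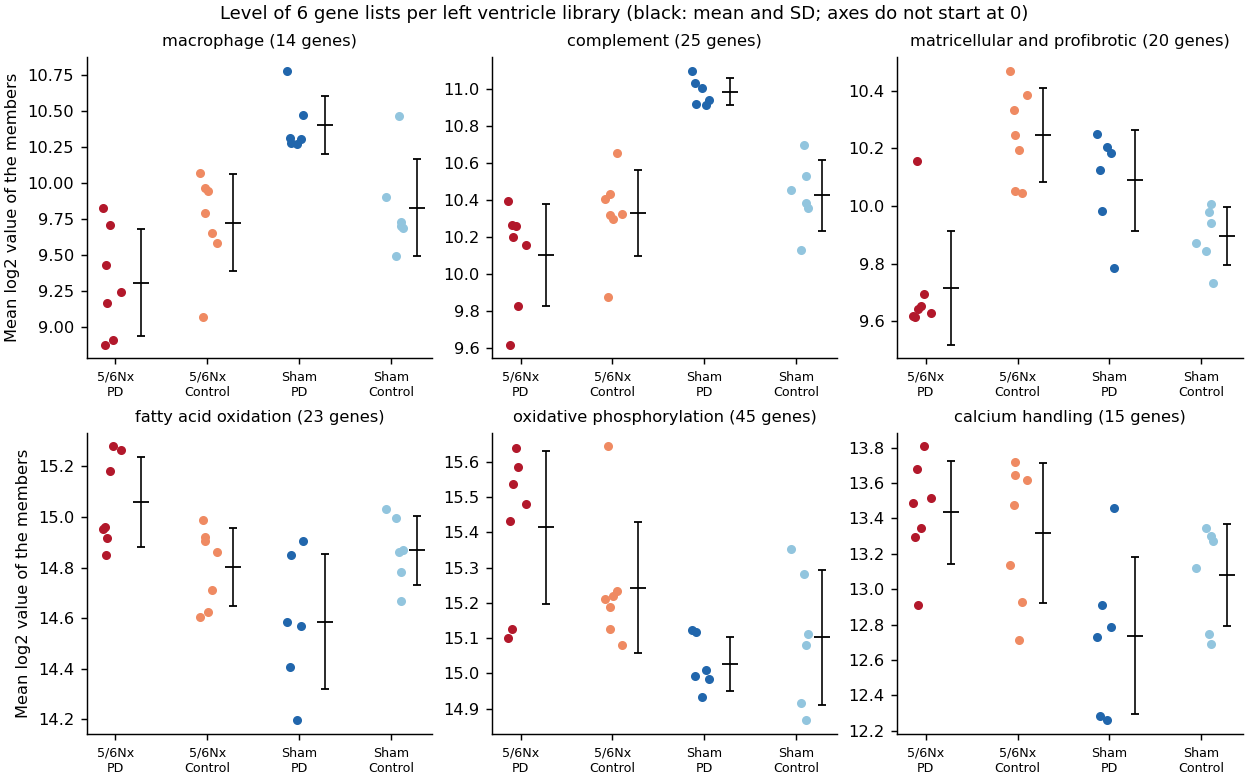
Mean deposited log2 value over the measured members of 6 gene lists (y axis) in each LV library. Points are libraries, and black marks are the mean and SD of the 7 libraries of each 5/6Nx group and the 6 of each Sham group. Complement genes are highest in Sham PD without overlap. Macrophage genes are highest there by the group mean, but LV Sham Control replicate 1 (10.47) lies within the Sham PD range. Matricellular genes are lowest in 5/6Nx PD with 1 library apart, and fatty acid oxidation, oxidative phosphorylation and calcium handling genes overlap between groups.

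The other lists had no member past the threshold, except that of SOCS and STAT3 targets. No member passed among 48 entries for proteins of the cytosolic ribosome (median -0.12, smallest p for Rpl3, adjusted p = 0.253), 28 interferon-stimulated genes (median -0.11, or -0.18 to 0.07 with 1 library left out, Usp18, adjusted p = 0.593) and 34 mitotic cell cycle genes (median -0.12, or 0.14 with limma-voom and sample quality weights, Mcm3, adjusted p = 0.165). The same held for 35 genes of the unfolded protein response (median -0.13, Ddit3, adjusted p = 0.244), 18 heat shock genes (median 0.07, Hspd1, adjusted p = 0.108) and 21 glucocorticoid targets (median 0.06, or -0.01 with total reads as the scale, Klf15, adjusted p = 0.138). It also held for 19 hypoxia genes (median -0.20, Adm, adjusted p = 0.223), 25 immediate early genes (median -0.09, Nr4a2, adjusted p = 0.105) and 22 antioxidant and metallothionein genes (median -0.10, Gpx3, adjusted p = 0.0934). In the fetal and hypertrophy program (15 genes, median -0.13) the smallest p was that of Nfatc4 (adjusted p = 0.195), and in the atrial list (5 genes, median 0.24, or -0.29 to 0.47 with 1 library left out) that of Nppa (adjusted p = 0.228). The mean log2 level of the atrial list was 11.88 in LV Sham Control replicate 2, the deepest library. It was 9.01 to 10.23 in the other Sham Control libraries and reached 11.30 in 5/6Nx PD. Whether atrial tissue lay behind the high value was not tested. Immune lists without a member past the threshold were neutrophils (16 genes, median -0.36, Csf3r, adjusted p = 0.147), T and NK cells (14 genes, median -0.15, Cd4, adjusted p = 0.0952), B and plasma cells (10 genes, median -0.21, Cr2, adjusted p = 0.299) and antigen presentation (21 entries, median -0.24, RT1-Bb, adjusted p = 0.159). Chemokines and receptors (31 genes, median -0.16, Cxcl2, adjusted p = 0.0820) and leukocyte adhesion genes (12 genes, median -0.31, Itgb2, adjusted p = 0.0629) had none either. Nor had erythroid genes (12 entries, median -0.33, Alas2, adjusted p = 0.344), adipocyte markers (5 genes, median 0.00, or -0.06 with total reads as the scale, Cfd, adjusted p = 0.0968), mesothelial and epicardial markers (9 genes, median -0.37, Krt19, adjusted p = 0.0530) and angiogenesis and Notch genes (30 genes, median -0.19, Jag1, adjusted p = 0.107). Signs were one-sided in some of these lists too, where 53.7% of all genes were negative. All 9 mesothelial and epicardial markers, 46 of the 48 ribosome entries, 11 of the 12 erythroid entries, 12 of the 16 neutrophil genes and 9 of the 12 leukocyte adhesion genes had a negative interaction. So had 17 of the 21 antigen presentation entries, 25 of the 31 chemokine genes, 8 of the 10 B and plasma cell genes, 15 of the 19 SOCS and STAT3 targets and 27 of the 35 unfolded protein response genes. Without the 2 libraries that stood apart, 4 of the 31 chemokine genes passed, 2 members passed in each of the heat shock, immediate early, angiogenesis and fetal lists, and 1 in each of the atrial, T and NK cell, adipocyte, glucocorticoid, leukocyte adhesion and antioxidant lists. Over all genes 1490 of 16388 passed in that fit. The median then changed sign for the fetal (0.07), glucocorticoid (-0.06) and adipocyte (-0.11) lists. The list of SOCS and STAT3 targets (19 genes, median -0.15) had 1 member past the threshold in each direction, Socs2 and Timp1, and 3 members passed without those 2 libraries.

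**Figure D5:**
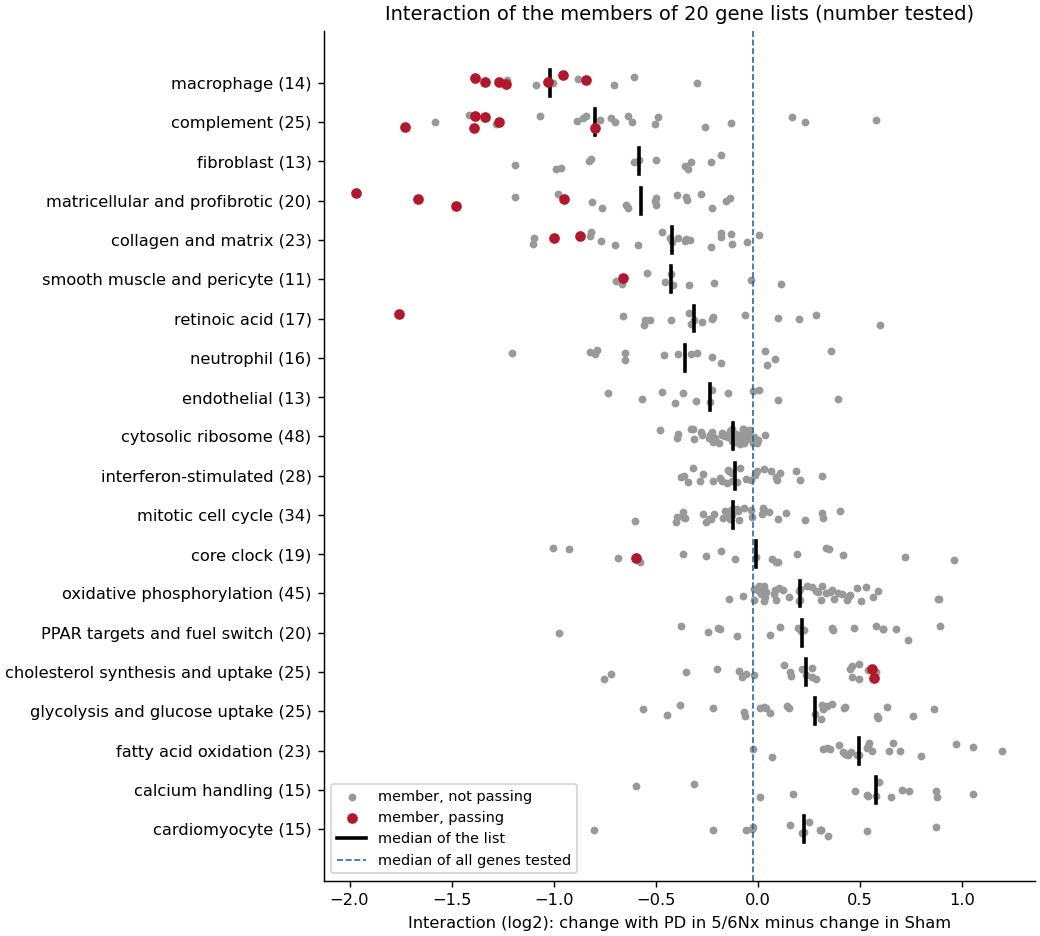
Interaction (x axis, log2) of the measured members of 20 gene lists, with the number tested in parentheses. Red points passed the threshold, black bars are list medians and the dashed line is the median of all genes tested, -0.03. Macrophage, complement and matrix lists lie to the left and fatty acid oxidation and calcium handling to the right, where no member passed.

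Cd177 and LOC100909700, which the study takes up for both surgeries, and Mmp8, Mmp9 and Vcam1 were followed by name, and none passed the interaction. Mmp9, a neutrophil gelatinase, had 348, 513 and 708 normalized reads in 5/6Nx PD, against 82.7, 118 and 237 in 5/6Nx Control, and 267, 324 and 574 in Sham PD, against 45.5, 78.4 and 101 in Sham Control. PD was above Control in every library of both surgeries, and the interaction was 0.03 (SE 0.22, limma adjusted p = 0.951). Mmp8, the neutrophil collagenase, had 1186, 2009 and 2205 in 5/6Nx PD, against 331, 601 and 947 in 5/6Nx Control, and 1259, 1552 and 2235 in Sham PD, against 149, 425 and 630.4 in Sham Control, with an interaction of -0.46 (SE 0.33, limma adjusted p = 0.478). Cd177, a surface glycoprotein of neutrophils, had 22.8, 61.6 and 179 in 5/6Nx PD, against 0, 0 and 12.5 in 5/6Nx Control, and 18.6, 50.8 and 247 in Sham PD, against 0, 0 and 8.5 in Sham Control. Its interaction was -0.18 (SE 0.31, limma adjusted p = 0.797), and that of LOC100909700 was -0.18 (SE 0.24, limma adjusted p = 0.733). LOC100909700 had 15.7, 36.2 and 109 normalized reads in 5/6Nx PD, against 0, 0 and 6.59 in 5/6Nx Control, and 18.6, 33.6 and 152 in Sham PD, against 0, 0 and 1.73 in Sham Control. Vcam1, an endothelial adhesion molecule, had 2255, 3361 and 10269 in 5/6Nx PD, against 617, 1224 and 1455 in 5/6Nx Control, and 1884, 3663 and 5946 in Sham PD, against 1365, 1745 and 2300 in Sham Control. Its PD and Control ranges were apart in 5/6Nx rats only, and the interaction was 0.71 (SE 0.38, limma adjusted p = 0.329). The 17 neutrophil markers, 1 of them (Ltf) at 0 in all LV libraries, summed to 10553, 23338 and 30650.0 normalized reads in 5/6Nx PD, against 6425, 10331 and 16367 in 5/6Nx Control, and 13005, 16849 and 27777 in Sham PD, against 2803, 6993 and 9446 in Sham Control. A p above the threshold does not show that these changes were equal. The SE of 0.22 to 0.38 set how small a difference could be seen on the deposited log2 scale, which compresses differences at low counts. For Cd177 and LOC100909700 this scale says little about ratios. The ratio of PD to Control means was 17.8 in 5/6Nx and 43.3 in Sham rats for Cd177, and 26.5 and 185 for LOC100909700. Their Control means were at most 3.81 normalized reads, so these ratios are uncertain too.

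In the kidney the same contrast gave no call. Of 17101 genes tested in the 26 kidney libraries, 0 (0%) passed in limma, with 765 at an unadjusted p under 0.05, and limma-voom with sample quality weights also called 0, with 1905 unadjusted. Cry2 was nearest, at -0.82 (SE 0.15, limma adjusted p = 0.226), the same direction as in the LV, and was the 1 gene called without Kidney 5/6Nx PD replicate 2 (-0.88, adjusted p = 0.0297). Cyp26b1 had a kidney interaction of -1.0 (SE 0.27, limma adjusted p = 0.875), also negative in both tissues. Cd163 had -1.23 in the LV, against 0.61 in the kidney (SE 0.28, limma adjusted p = 0.954). Fgf16 did not enter the kidney test because of few reads. Of the 113 LV genes 107 were tested in the kidney, and 79 (73.8%) had the sign of the LV, against 59.1% of all 15505 genes tested in both. An unadjusted kidney p under 0.05 was found for 11 (10.3%) of the 107, against 4.32% of all. The difference between the LV and the kidney interaction passed for 0 (0%) of 16312 genes in limma, with 1301 at an unadjusted p under 0.05, so that none of the 113 was shown to be particular to the LV by this test. Limma-voom with sample quality weights called 8 for that difference, among them the LV genes Lrrc1 (0.63), Dact2 (-2.91), Myo16 (3.13) and Fbxo2 (-6.05). These sizes are on the log2 scale of limma-voom and not on the compressed deposited scale, so they cannot be set against the interactions above. Whether few reads in a tissue lay behind them was not tested. The labels do not state which LV and kidney library came from the same rat. In the sample titles, each LV number has a kidney number of the same group at a fixed distance, and the study took both organs from its rats. The LV number is the higher of the pair except for LV Sham Control replicates 1 and 2, where it is the lower. The reason for this reversed order is not stated. This possible pairing was not used, and all 52 libraries were treated as independent. What shared rats would do to the agreement in sign and to the difference between tissues was not tested.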

How the data were processed

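The authors trimmed reads with Trim Galore and cutadapt, aligned them to rn6 with HISAT2 (version 2.1.1 per the labels) and analysed them with DESeq2. The values deposited by the authors are log2 values of 20624 genes. The sources used here do not name their transformation, and the values have the form of the variance stabilising transformation of DESeq2 over all 52 libraries. No per-sample column went unmapped. The deposited fold changes and p-values of the authors' own comparisons were not used. Inverting that transformation gave normalized reads and, per library, whole reads (largest deviation from a whole number 8.01e-08).

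The interaction was tested on the deposited log2 values of the 26 LV libraries with limma 3.58.1 (R 4.3.3, statmod 1.5.0; trend and robust settings), with 1 mean per group. A gene was tested if 6 or more libraries had 10 or more normalized reads, and the threshold was 0.05 on the Benjamini-Hochberg adjusted p. Changes within a surgery are differences of means with no test. No 2 libraries of a group were alike within sampling noise (chi-square per gene at least 20.91). Nothing states whether rats were littermates.

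Named genes were the 15 positive and 15 negative genes of smallest p with a symbol and a mean of at least 50 normalized reads in a group. To these came up to 3 passing members of each list (where none passed, the 1 of smallest p with its p only) and Cd177, LOC100909700, Mmp8, Mmp9 and Vcam1. Some genes that this rule names are not reported here. The contrast, the lists and this rule were chosen with earlier results of these data known. Alternatives were other scalings, filters, offsets, weights, covariates and libraries left out. Other scalings moved the median over all genes by less than 0.1 on the log2 scale. No genome sequence was used here.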

Additional observations from a re-analysis of the deposited data

Results flagged for a closer look

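The interaction itself is a difference between the responses of 2 surgeries, and each named gene past its threshold is listed for that reason. On the log2 scale, PD minus Control in 5/6Nx less the same in Sham rats, the positive values were 0.67 for Nae1, 1.09 for Fgf16, 0.88 for Rd3l, 0.53 for Tiprl, 0.54 for Lrrc1, 1.09 for Adra1d, 0.70 for Oca2, 1.17 for Aqp7, 0.57 for Socs2, 0.62 for Lnx1, 0.61 for Tefm, 0.72 for Foxp2, 0.97 for Efhd1, 0.66 for Nmd3, 0.56 for Cyp51 and 0.57 for Idi1. The negative values were -1.09 for Tnxb, -0.93 for Dok3, -0.92 for Ptgir, -1.08 for Gpnmb, -1.34 for C1qb, -0.87 for Bgn, -0.91 for Cpeb1, -1.76 for Cyp26b1, -1.20 for Hmcn2, -0.96 for Lyve1, -1.23 for Cd163, -0.69 for Thbs3, -0.88 for Dixdc1, -1.73 and -1.39 for the 2 entries named C4a, -0.95 for Timp1, -0.66 for Cspg4, -1.48 for Wisp2, -0.60 for Cry2, -1.66 for Ltbp2 and -1.0 for Col12a1.

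Single libraries lay far from the rest of their group in 13 of 168 groups of named genes (7.74%), where chance gives about 1 in 20. C1qb reached 5555 normalized reads in LV Sham PD replicate 1, against 4722 in the next library. Lnx1 had 3803 in LV 5/6Nx PD replicate 4 (next 3523) and 2445 in LV 5/6Nx Control replicate 3 (next 2892). Cyp26b1 had 1394 in LV 5/6Nx Control replicate 5 (next 656), and Ltbp2 had 1230.0 in LV 5/6Nx PD replicate 5 (next 654). Dixdc1 had 55.9 in LV Sham Control replicate 2 (next 123). Vcam1 had 617 in LV 5/6Nx Control replicate 1 (next 1132), one of the 2 libraries that stood apart. Mmp9 had 574 in LV Sham PD replicate 5 (next 367) and 237 in LV 5/6Nx Control replicate 6 (next 128). LOC100909700 had 109 in LV 5/6Nx PD replicate 7 (next 44.5), 152 in LV Sham PD replicate 5 (next 53.1) and 1.73 in LV Sham Control replicate 2, where the others were at 0. Cd177 had 179 in LV 5/6Nx PD replicate 7 (next 66.3).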

How the results depend on the processing

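All 113 genes kept their direction under every alternative in which they were tested. With all 52 libraries in 1 fit, 84 of the 113 passed and 109 had an unadjusted limma p under 0.05, with a largest p of 0.127. Counts of genes called (positive and negative) differed by more than 1.5 times from 113 (54 and 59) under some alternatives. They were 57 (27 and 30) with no filter on low values, 56 (28 and 28) with log2 depth as a covariate, 241 (109 and 132) with limma-voom without weights, 1019 (524 and 495) with limma-voom and sample quality weights, 1159 (590 and 569) with array quality weights and 436 (279 and 157) with all 52 libraries in 1 fit, where 64.0% were positive, against 47.8%. Among alternatives chosen after seeing the data, the count was 1490 (813 and 677) without both LV Sham PD replicate 2 and LV 5/6Nx Control replicate 1, and 2 (1 and 1, Fgf16 and Dok3) without the 3 deepest libraries, all of Sham rats. Total reads as the scale was not planned either and gave 141 (68 and 73). Leaving out 1 library each gave 2 to 695 (1 to 344 positive and 1 to 366 negative). A minimum of 50 normalized reads, TMM scaling, size factors within the LV, total reads as the scale, offsets of 1 or 10 and eBayes without trend and robust settings gave 101 to 160, with the positive share between 38.9% (51 of 131, TMM) and 49.1%. The cause of these differences was not tested. In the kidney, leaving out 1 library gave 0 to 1 called, and for the difference between tissues limma-voom with sample quality weights gave 8, against 0. No analysis paired between PD and Control or between surgeries was possible because the labels give no replicate numbers shared between these groups. A pairing of tissues by sample number was not used. Between 5 and 26 of the 26 fits with 1 library left out called a given gene of the 113 (median 13), and the highest adjusted p over these fits was 0.104.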

Other observations

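Further genes among the 113 were picked by hand after their values were seen, so they describe single genes and lend no weight to any group. Each is given with its interaction on the log2 scale and limma adjusted p. Lgals3, a lectin of activated macrophages, had -0.91 (SE 0.20, adjusted p = 0.0318), and Cybb, the catalytic subunit of the phagocyte NADPH oxidase, had -1.10 (SE 0.26, adjusted p = 0.0425). Slc11a1, a metal transporter of phagosomes, had -1.02 (SE 0.22, adjusted p = 0.0373), and both Axl, a receptor kinase for apoptotic cells, and Siglec1, a sialic acid receptor of macrophages, had -1.04 (SE 0.25, adjusted p = 0.0468). Thbs4, a thrombospondin, had the largest interaction of the 113 genes, -1.97 (SE 0.45, adjusted p = 0.0409). Bmp2, a ligand of the TGF-beta family, had -0.62 (SE 0.13, adjusted p = 0.0292).

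Positive interactions were also found outside the lists. Mrps30 and Ptcd3, of the mitochondrial ribosome, had 0.55 (SE 0.13, adjusted p = 0.0444) and 0.53 (SE 0.13, adjusted p = 0.0468). Nubpl, an assembly factor of respiratory complex I, had 0.45 (SE 0.11, adjusted p = 0.0425), and Gpd2, the mitochondrial glycerol phosphate dehydrogenase, 0.63 (SE 0.14, adjusted p = 0.0301). Slc38a3, a glutamine transporter, had 0.60 (SE 0.13, adjusted p = 0.0373), and Kpna2, an importin of the nuclear pore pathway, 0.74 (SE 0.16, adjusted p = 0.0279).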
